A study of Mus musculus with 20 samples.

Results

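The comparison asked how the brain transcriptome of methamphetamine-treated mice differed when the mice also expressed HIV-1 Tat, with the 5 arrays titled Tat+Meth+ set against the 5 titled Tat-Meth+, 10 of the 20 arrays of the series. The genes were those with a probe well above background on all 10 arrays, so that each group had a measured value, and there were 14192 of them out of 20972 genes with a named probe. Tat-Meth+ mice carried a Tet-binding protein under the GFAP promoter, but no Tat transgene. Tat+Meth+ mice carried the same driver together with a tetracycline-responsive Tat transgene, so that doxycycline turned on Tat in cells with GFAP promoter activity, which are mainly astrocytes. All mice were C57BL/6J males given 100 mg/kg doxycycline, and both groups here received 2 mg/kg methamphetamine (Meth) for 7 days. The methods add a 1 mg/kg Meth challenge after 7 days of abstinence, given to every mouse of the series, with brains taken 1 h later, whereas the labels give 24 h after the last injection. The labels name the left hemisphere and an age of 6 to 7 weeks, and the methods the caudate putamen and 3 to 5 months. In Tat-Meth- and Tat+Meth- mice, saline replaced the 7 days of Meth. Their values are set beside the comparison, and their arrays also entered the estimate of spread in the fit. The Tat transcript itself was not analysed here, so the arrays hold no check of the genotype.

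Tat is the trans-activator of HIV-1 transcription. It can leave the cell that makes it, and it acts on astrocytes, microglia and neurons. Meth releases dopamine into the striatum, where medium spiny neurons carry the dopamine receptors and where repeated doses of the drug produce behavioural sensitization. A microarray probe reports the fluorescence of labelled RNA bound to 1 short sequence, so a log2 difference compares the same probe between groups, and a signal level describes the probe and not the abundance of 1 transcript against another.

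The groups lay on different slides. Slide 1 held the 5 Tat-Meth+ arrays and no other array, slide 2 held Tat+Meth+ replicates 1 to 3 with the 5 Tat-Meth- arrays, and slide 3 held Tat+Meth+ replicates 4 and 5 with the 5 Tat+Meth- arrays. All arrays of a slide shared 1 scan. Slide and group therefore cannot be told apart in this comparison, and every difference below is a difference between slide 1 and slides 2 and 3 as much as between Tat-Meth+ and Tat+Meth+. Array-level measures moved with the groups. The log2 75th percentile, which is the scale used for the genes, was 9.635 to 9.793 on the Tat-Meth+ arrays. On the Tat+Meth+ arrays it was 9.951 to 10.24 (exact two-sided permutation p = 0.00794). The log2 signal of the bright corner spots was 14.67 to 15.06 on the Tat-Meth+ arrays and 17.18 to 17.42 on the Tat+Meth+ arrays, and the mean of the negative control spots was 44.7 to 92.3 against 22.9 to 27.6 intensity units (each exact two-sided permutation p = 0.00794, the smallest that 5 against 5 allows, adjusted p = 0.0148 over 28 measures). Tat-Meth+ replicate 5 stood apart, with 70.8% of its probes well above background against 56.4 to 67.3% on the other 9 arrays, and with the 92.3 among the negative control means.

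The 10 spike-in probes, which bind control RNA that is not from the mouse, differed too. After the scaling used for the genes, 8 of the 10 were lower and 2 higher in Tat+Meth+, by -0.76 to 0.94 log2 units, and 7 of the 10 reached the exact p of 0.00794 (adjusted p = 0.0148). The rise of 0.94, from 16.7 to 17.1 on the Tat-Meth+ arrays to 17.7 to 17.9 on the Tat+Meth+ arrays, was at a level where mouse genes also lay. Without scaling, 5 were lower and 5 higher, and 4 reached that p. Their part in the differences of single genes was not tested.

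Of the 44 genes of medium spiny neurons and dopamine signalling, 43 were measured on all 10 arrays, Drd1, Drd2, Adora2a, Penk and Tac1 among them, at a mean log2 signal of 13.92 to 14.03 on the Tat+Meth+ arrays and 13.97 to 14.05 on the Tat-Meth+ arrays. Of the 14 markers of cortex and hippocampus 8 were measured, at 9.16 to 9.51 and 9.27 to 9.68. Of these 8, 4 had a signal under 8, 1 was from 12 to 14 and 1 at 14 and over. The lists use different probes, so their levels do not compare regions, and the share of tissue from outside the striatum was not tested. Of the 10 choroid plexus markers 6 were measured. In whole tissue, fewer cells of a type and less RNA per cell cannot be told apart.

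Of the 14192 genes, 611 were called higher in the Tat+Meth+ group (4.31% of the genes tested) and 32 lower (0.225%), at an adjusted p under 0.05 and a change of more than 2-fold in limma. The rises were also the larger changes. Of the genes called higher, 189 rose more than 4-fold and 30 more than 16-fold, whereas no gene called lower fell by 4-fold, and the medians were 1.56 log2 units among the 611 and -1.10 among the 32. The split depended on the scaling: 95.0% of the calls were rises after scaling to the 75th percentile, 82.2% after scaling to the median and 99.7% without scaling. At an adjusted p under 0.05 and no limit on size the balance was the other way, with 1924 genes higher (13.6%) and 5750 lower (40.5%). That balance turned round without scaling, to 4652 higher and 303 lower, and cyclic loess left 2884 higher and 3746 lower. The median of all genes was -0.16, and it was -0.32 under median scaling and 0.18 without scaling, so the small falls below are given beside that median.

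The groups did not overlap for 1381 genes that were higher (9.73%) and 4014 that were lower (28.3%), and among the called genes this held for 572 of the 611 and 26 of the 32. Arrays of 1 group correlated with each other at 0.989 to 0.996 over these genes, and arrays of different groups at 0.963 to 0.976, as a description with genes that are not independent. Tat+Meth+ arrays of slide 2 alone kept 611 of the 643 calls, and those of slide 3 alone kept 549. Both were set against the same 5 arrays of slide 1, and the calls came from these arrays, so neither count separates slide 1 from Tat-Meth+. Without Tat-Meth+ replicate 5, 673 genes were called higher and 38 lower, and 629 of the 643 calls were kept.

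**Figure D1:**
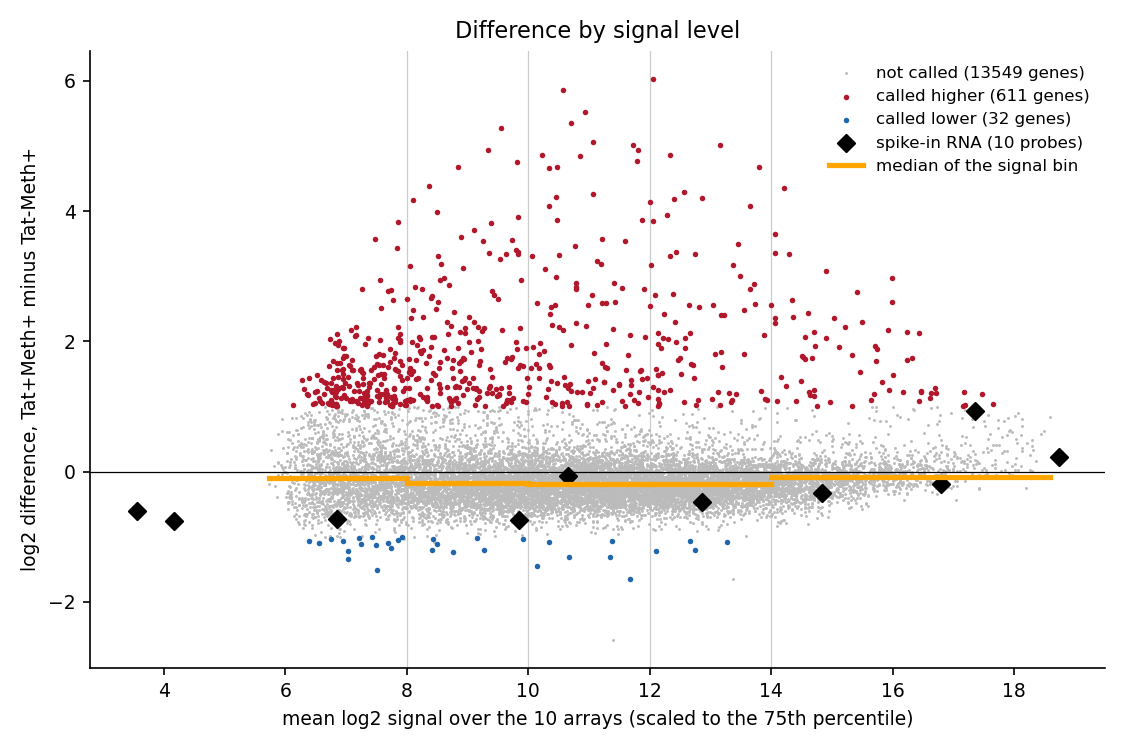
Log2 difference between Tat+Meth+ and Tat-Meth+ (y axis) against the mean log2 signal over the 10 arrays (x axis) for each gene tested, with genes called higher in red, genes called lower in blue, the median of each signal bin in orange and the 10 spike-in probes as black diamonds. The 611 rises reach 6.03 and lie at all signal levels, the 32 falls reach -1.64, and the spike-in probes spread from -0.76 to 0.94.

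The share of genes called changed with the signal level. Rises made up 8.57% of the 2135 genes with a mean log2 signal under 8, 5.47% of the 3200 from 8 to 10, 2.82% of the 3896 from 10 to 12, 2.44% of the 3202 from 12 to 14 and 3.70% of the 1759 at 14 and over. Falls of more than 2-fold numbered 15, 7, 6, 4 and 0 in the same order. The median difference was -0.09 in the lowest bin, -0.18, -0.20 and -0.20 in the next 3, and -0.08 in the highest. When the level was taken from the 10 saline arrays, which are not part of the comparison, rises made up 5.17, 5.70, 3.03, 3.20 and 5.50% of the bins, so the lead of the lowest bin over the highest was not kept.

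**Figure D2:**
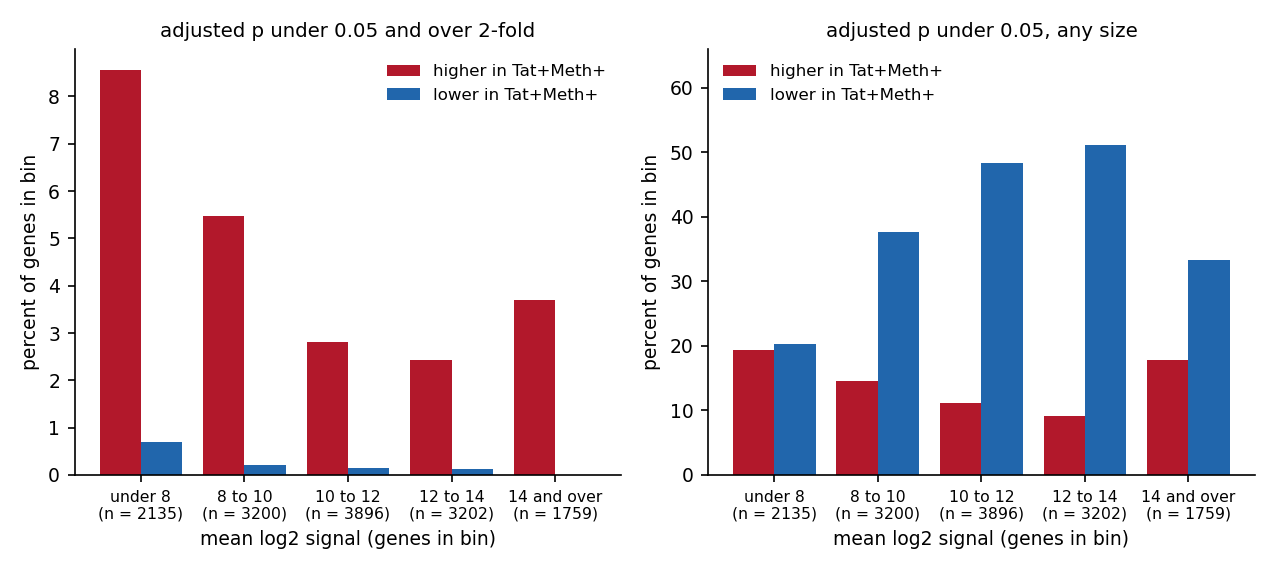
Percent of the genes in each signal bin (y axis, bars from 0) that were higher (red) or lower (blue) in Tat+Meth+, with the 2-fold limit on the left and at adjusted p under 0.05 alone on the right. With the limit the rises lead in every bin, from 8.57% in the lowest to 2.44% in the fourth, and without it the falls reach 51.2% of the genes from 12 to 14.

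Among the brightest genes, at a log2 signal of 14 and over, 65 rose more than 2-fold and none fell that far. The 3 with the largest rise were Notum, a secreted enzyme that inactivates Wnt proteins, Lst1, a leukocyte transcript, and Arl4c, a small GTPase. Notum measured 11.80, 12.65, 11.66, 11.97 and 12.13 on Tat-Meth+ arrays 1 to 5 and 16.36, 16.32, 16.30, 16.46 and 16.53 on Tat+Meth+ arrays 1 to 5. Every Tat+Meth+ array thus lay over 3 log2 units above every Tat-Meth+ array, a difference of 4.35 ± 0.17 (SE, adjusted p = 5.57e-13). Lst1 rose by 3.66 ± 0.14 and Arl4c by 3.36 ± 0.14, also without overlap. This bin held all 76 measured cytosolic ribosomal proteins, of which 28 rose, 14 fell and 34 did not pass the test at adjusted p alone, with a median of 0.05 against -0.08 for the bin. Of all genes in the bin 17.8% rose and 33.3% fell at that limit. Rps21, of the small subunit, rose from 14.80 ± 0.24 (SD, n = 5) to 16.68 ± 0.12, and Rpl4, of the large subunit, from 15.31 ± 0.28 to 16.56 ± 0.06, and they were the 2 of the list past 2-fold. Rps18 fell by 0.60 ± 0.06 on its reported probe (adjusted p = 8.71e-08). Ribosomal protein genes have many processed pseudogenes, so which copies a probe binds is uncertain.

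The other bright genes of the lists that passed 2-fold were from microglia, the synapse and the heat shock family. Siglech, a sialic acid-binding receptor of microglia, measured 15.19 to 15.54 in Tat-Meth+ and 16.97 to 17.18 in Tat+Meth+, a rise of 1.72 ± 0.08 (adjusted p = 4.50e-12). Itgam, the alpha chain of complement receptor CR3, rose by 1.12 ± 0.10. Hspa8, the constitutive heat shock chaperone, rose from 16.88 ± 0.08 to 18.07 ± 0.07, and Rab3c, a small GTPase of synaptic vesicles, from 14.01 ± 0.18 to 15.23 ± 0.19. None of these 4 had overlapping groups. Hspa8 was at 0.90 to 0.96 and Itgam at 0.93 to 0.97 with quantile normalization, cyclic loess and normexp, under the 2-fold limit, and so was Itgam with median scaling (0.97). Each of the 4 had at least 1 further measured probe, and no further probe of the 4 passed 2-fold. Of the 39 bright subunits of respiratory complexes II to V and cytochrome c, 13 rose and 7 fell at adjusted p alone, beside the 17.8 and 33.3% of the bin. The largest were Atp5o, of ATP synthase, up by 0.80 ± 0.06, and Cox4i1, of cytochrome c oxidase, which fell by 0.43 on the log2 scale.

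From 12 to 14, 78 genes rose past 2-fold and 4 fell. Wdfy1, an endosomal WD-repeat protein, had the largest difference of all genes tested. It measured 8.87, 9.31, 8.68, 8.84 and 9.45 in Tat-Meth+ and 14.87 to 15.35 in Tat+Meth+, a rise of 6.03 ± 0.22 or 65.5-fold (adjusted p = 1.87e-13). Krtap10-10, a keratin-associated protein of hair, rose by 5.01 ± 0.18, and Elane, the elastase of neutrophils, by 4.86 ± 0.20. Both genes are known for tissues other than brain. The falls were 1700110I01Rik by 1.23 on the log2 scale, Trappc3, of a vesicle tethering complex, by 1.20 and Olfml3, a secreted glycoprotein, by 1.08. Tat-Meth+ replicate 5 was the highest for Olfml3, at 14.96 against 13.20 to 13.72 on the other 4, and without it the fall was 0.80, under 2-fold. None of these 3 falls reached 2-fold without scaling, at -0.89, -0.86 and -0.75. In the lists, Tagln, of smooth muscle, rose by 1.51 ± 0.15 and Kdr, the VEGF receptor of endothelium, by 1.11 ± 0.13, with Kdr at 0.95 under median scaling and 0.94 with the arrays of slide 3 alone. All 7 heat shock and unfolded protein response genes of this level fell at adjusted p alone. Of the 17 translation initiation factors and mTOR genes at this level, 10 fell and 1 rose at adjusted p alone, near the 51.2 and 9.21% of all genes at this level.

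From 10 to 12, 110 genes rose past 2-fold and 6 fell. Bard1, the partner of Brca1 in DNA repair, measured 7.66, 7.79, 7.51, 7.61 and 7.68 in Tat-Meth+ and 13.04, 13.46, 13.08, 14.16 and 13.84 in Tat+Meth+, a rise of 58.3-fold. Sall4, a zinc finger factor of stem cells, rose by 5.52 ± 0.30 and Pramel34, of a germline gene family, by 5.35 ± 0.31. For all 3 the highest Tat+Meth+ array was replicate 4. The fall of H4f16, a histone H4 gene, was the largest of the 32. It measured 12.43 to 12.60 in Tat-Meth+ and 10.71 to 10.95 in Tat+Meth+ (-1.64 ± 0.07, adjusted p = 1.94e-12). Histone H4 genes are near-identical, so the copy behind this value is uncertain. Fbxo33, an F-box protein, fell by 1.32 on the log2 scale (-0.98 without scaling) and 4933409K07Rik by 1.46. The list members that rose past 2-fold at this level were the nicotinic receptor subunit Chrna2 by 4.85 ± 0.25, the tumour necrosis factor receptor Tnfrsf1a by 1.33 ± 0.10 and the fatty acid-sensing nuclear receptor Ppara by 1.85 ± 0.27. Smaller falls were those of Polr1a, the large subunit of RNA polymerase I, by 0.67 and of Sirt1, the NAD-dependent deacetylase, by 0.58 on the log2 scale. Of the 9 clock genes at this level 5 fell at adjusted p alone, Clock by 0.46 and Nr1d2 by 0.66 among them, near the 48.4% of all genes at this level.

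From 8 to 10, 175 genes rose past 2-fold and 7 fell. Olfr1350, an odorant receptor, measured 6.69 to 7.17 in Tat-Meth+ and 11.04, 11.53, 12.13, 12.44 and 13.81 in Tat+Meth+, a rise of 38.7-fold with a wide spread on its high side. Msx2, a homeobox factor of bone and skin, rose by 4.94 ± 0.47, and Lman1l, a lectin of the secretory pathway, by 4.76 ± 0.43. Akt1s1, the mTORC1 inhibitor PRAS40, fell by 1.20 on the log2 scale, Tmod4, a tropomodulin of muscle, by 1.20 and Lipa, the lysosomal acid lipase, by 1.04. These falls were under 2-fold without scaling, at -0.86, -0.86 and -0.70. That of Akt1s1 was also under it without Tat+Meth+ replicate 5 (-0.86), and that of Lipa when Tat-Meth+ replicate 1 or 2 or Tat+Meth+ replicate 3 or 5 was left out (-0.9997 to -0.94). Nos2, the inducible nitric oxide synthase, had the clearest rise of the list members here, from 7.14, 7.40, 6.97, 6.60 and 7.30 to 10.04, 10.10, 10.10, 9.79 and 10.12 (2.95 ± 0.12, adjusted p = 5.57e-13). Homer3, a scaffold of metabotropic glutamate receptors, rose by 2.00 ± 0.51, and Ccl19, a chemokine of lymphoid tissue, by 1.89 ± 0.17.

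Below 8, 183 genes rose past 2-fold and 15 fell. Sit1, a lymphocyte adaptor, measured 5.72 to 6.48 in Tat-Meth+ and 8.73 to 11.27 in Tat+Meth+, a rise of 3.83 ± 0.60. Aadacl4fm5, of the arylacetamide deacetylase family, rose by 3.58 ± 0.53, and Prss28, a serine protease of uterus, by 3.43 ± 0.62. In each of the 3 the highest Tat-Meth+ array was replicate 5 and the highest Tat+Meth+ array replicate 4. The falls were led by Pifo, a protein of primary cilia, which measured 8.09 to 8.44 in Tat-Meth+ and 6.60 to 6.91 in Tat+Meth+ (-1.51 ± 0.12). Npas1, a transcription factor of pallidal neurons, fell by 1.34 with 1 Tat-Meth+ array at 9.61 and 4 at 6.74 to 7.58. That array was replicate 1, and without it the fall was 0.86, under 2-fold. The call was also lost without scaling (-0.998, adjusted p = 0.0816), with normexp (-0.94), with the arrays of slide 3 alone (adjusted p = 0.0762) and in the methods' t-test (0.0609). Rarres1, a retinoid-responsive gene, fell by 1.21, and by less than 2-fold without Tat-Meth+ replicate 4 (-0.93) and without scaling (-0.88). The list members past 2-fold at this level were Cox17, a copper chaperone of cytochrome c oxidase, and Chrnb4, a nicotinic receptor subunit, both higher. This is the level nearest to the negative control spots, which were brighter on slide 1, and Tat-Meth+ replicate 5 lay 0.33 log2 units above its group's mean over these genes while the other 4 arrays lay 0.07 to 0.13 below it. Without that array the median of the bin was -0.01 in place of -0.09.

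**Figure D3:**
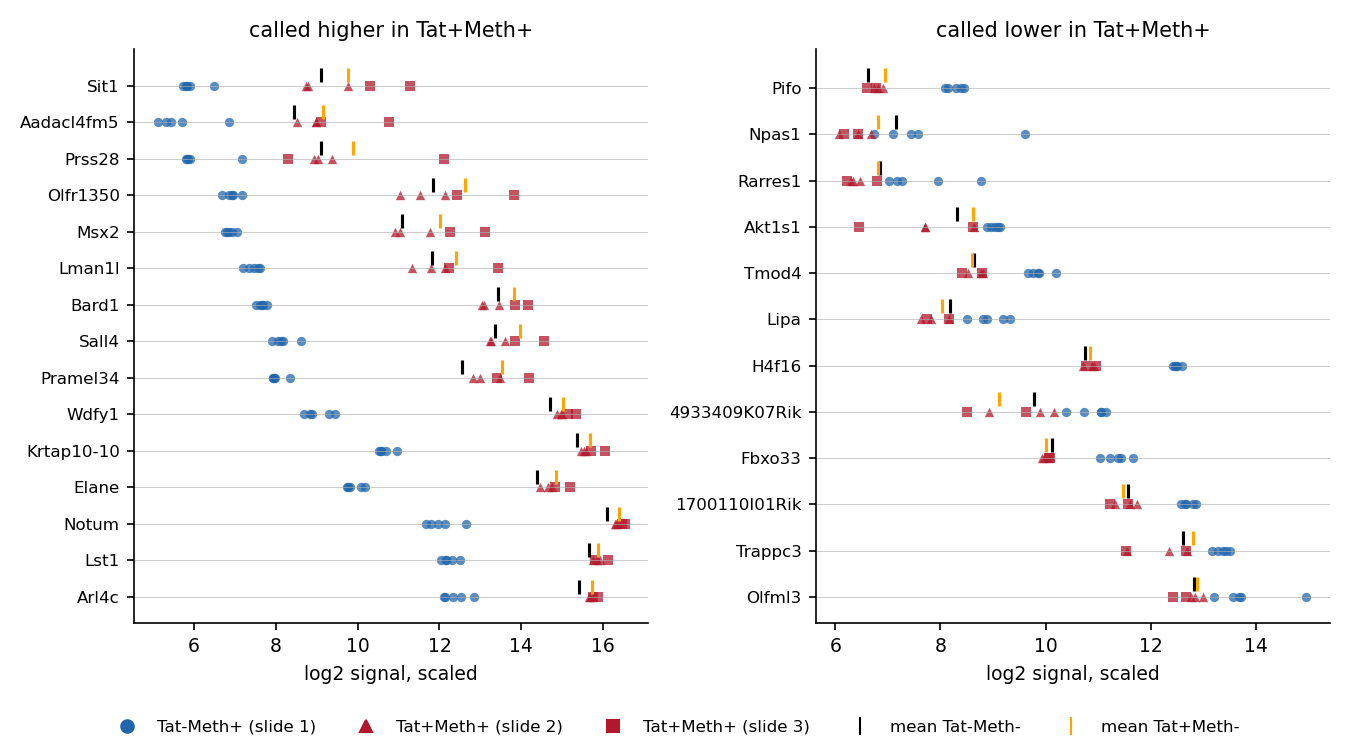
Scaled log2 signal (x axis) of the 27 genes with the largest differences in each signal bin whose groups do not overlap, 1 point for each of the 10 arrays, with Tat-Meth+ in blue, Tat+Meth+ in red (triangles on slide 2, squares on slide 3) and the means of Tat-Meth- and Tat+Meth- as black and orange ticks. For the rises the blue points stand alone on the left, and the red points and both ticks lie together on the right.

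The saline groups, which lie on slides 2 and 3, give the level of each of these genes in mice that differ in Meth. For 607 of the 611 genes called higher, the means of Tat-Meth- and of Tat+Meth- were both nearer to the Tat+Meth+ mean than to the Tat-Meth+ mean, and for 1 gene both were nearer to Tat-Meth+. For the genes called lower this was so for 25 of 32 and 1, and over all genes tested for 9571 of 14192, or 67.4%. Wdfy1 averaged 14.69 in Tat-Meth- and 15.03 in Tat+Meth-, against 15.06 in Tat+Meth+ and 9.03 in Tat-Meth+. Nos2 averaged 10.05 and 9.79 against 10.03 and 7.08, and Pifo 6.62 and 6.94 against 6.76 and 8.27. The group that stood alone in these genes was Tat-Meth+, the group that was alone on its slide.

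Several families known mainly from tissues other than brain had a larger share of rises than the 4.31% of all genes. Olfactory receptors, the odorant receptors of nasal epithelium, had 54 measured members of 1072 with a probe, and 23 of the 54 were called higher and 1 lower. Their share was 12 of 34 below 8, 7 of 14 from 8 to 10, 4 of 4 from 10 to 12 and 0 of 2 from 12 to 14. Vomeronasal receptors, which detect pheromones, had 7 of 18 called higher, keratins 6 of 13, keratin-associated proteins 4 of 12, serpins, which inhibit serine proteases, 6 of 24 and cytochrome P450 enzymes 8 of 35. No member of these 5 families was called lower. Of the other such families, proteases of the Prss, Tmprss and Klk families had 5 of 22, taste receptors 1 of 4, and defensins, Hox genes and lymphocyte receptor genes 0 of 2 each. Below the 4.31% of all genes lay Zfp zinc finger genes with 8 of 343, solute carriers with 6 of 270, potassium channels with 1 of 71 and mitochondrial ribosomal proteins with 1 of 77 called higher. Ring finger and TRIM genes (4 of 103), collagens (1 of 27) and kinesins (1 of 30) lay near that share, and histone genes, with 3 of 46, above it. Genes named by a RIKEN clone had 32 of 354, those named by a predicted model 22 of 183, and long intergenic or antisense RNAs 3 of 49. These counts use the 75th percentile scaling and were not repeated by family under other scalings. Probes without a gene name here were called higher in 14.2% of 9510 cases, and probes with a name in 3.88% of 18566. Olfactory and vomeronasal receptors hold many near-identical copies, so single members are uncertain.

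Where a gene had a further measured probe, the probes often did not move together. Of the 611 genes called higher, 118 had at least 1 other measured probe. In 22 of the 118 every other probe also rose at adjusted p under 0.05, in 87 no other probe did, and in 29 at least 1 other probe fell at that limit. Over all 3650 genes with a further probe, every other probe passed in the direction of the reported one in 28.9%. In the 118 this was 18.6%. The 28.9% pools rises and falls and counts genes whose reported probe did not itself pass, so the 2 shares are not alike. Wdfy1 rose by 6.03 on its brightest probe, and its other probe differed by -0.64 ± 0.42 (adjusted p = 0.21). Reported probes were chosen by their mean over both groups, so a probe high in 1 group alone could be chosen through that group. In Tat-Meth+ alone the other probe of Wdfy1 was the brighter, at 11.45 against 9.03, and that of Bard1 the dimmer, at 6.98 against 7.65. The other probe of Bard1 differed by 0.08 and that of Lst1 by 0.10, against 5.86 and 3.66 on the reported ones. Siglech, at 1.72, had another probe at -0.31. Hspa8 had 2 others at 0.31 ± 0.07 and -0.21 ± 0.13, and Itgam 2 others from 0.14 to 0.39. Rab3c had 2 from -0.14 to 0.77, and Ppara, at 1.85, had 2 from -0.17 to 0.003. With the mean over a gene's measured probes in place of the brightest, 10 of the 59 named called genes were under 2-fold. Siglech was then at 0.71, Rab3c at 0.61, Ppara at 0.56, Itgam at 0.55, Ccl19 at 0.54, Kdr at 0.50, Tnfrsf1a at 0.48 and Hspa8 at 0.43, and Olfml3 and 1700110I01Rik at -0.62 and -0.56. Probes of 1 gene can bind different transcripts or exons, and their part in these differences was not tested.

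The housekeeping gene Gapdh, with 7 measured probes, shows the spread within 1 gene. From the brightest to the dimmest its probes differed by 0.39, -0.40, 0.13, 0.01, 0.34, -0.04 and -0.21 log2 units. The brightest passed as higher (adjusted p = 1.67e-05 with each probe tested on its own) and the next as lower (1.99e-05), at standard errors of 0.06. Homer1, whose short form is induced by neuronal activity, had 5 probes, at 0.34 on the brightest and -0.36, -0.46, -0.27 and -0.10 on the others. Both lie below 2-fold, and the direction of each depended on the probe, and for the brightest probe of Gapdh also on the scaling, at -0.02 with quantile normalization.

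The genes whose other probes were all called the same way past 2-fold numbered 13 among the rises and 1 among the falls, and those named here were chosen after their values were seen. Vangl2, a planar cell polarity receptor, rose from 8.63, 8.93, 8.61, 8.52 and 8.88 to 11.79, 11.30, 11.44, 12.69 and 11.87 on 1 probe, by 3.1 ± 0.34, and by 1.21 ± 0.20 on the other. Lce1a2, of the skin's cornified envelope, rose by 3.16 and 3.47, Tbc1d22b, a GTPase-activating protein, by 2.53 and 1.30, and Septin1, a cytoskeletal GTPase, by 2.22 and 2.91. Others were Arap1, Arhgap28, Fbxo39, Gm19668, Nhlh1, Prpmp5, Slfn9 and Zfp956, at 1.01 to 2.53 on the reported probe. Arap1 was under 2-fold without Tat+Meth+ replicate 4 (0.94), and Arhgap28 when Tat-Meth+ replicate 1 or 2 or Tat+Meth+ replicate 1 or 4 was left out (0.96 to 0.98). Gm3893 was the fall, by 1.24 with an adjusted p of 0.0409 and overlapping groups, and its call was lost in 12 of 27 alternatives, among them without each of Tat-Meth+ replicates 2 to 5 and Tat+Meth+ replicates 1 and 5 (adjusted p = 0.0558 to 0.114, against 0.00401 to 0.166 over all 27). Of the genes whose every other probe passed the other way, Paip1, Greb1 and Zfp609 had the largest rises, at 3.55, 3.34 and 2.80, with other probes at -0.27, -0.73 and -0.37. The saline means lay with Tat+Meth+ for Vangl2 as well, at 11.33 in Tat-Meth- and 11.92 in Tat+Meth-.

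**Figure D4:**
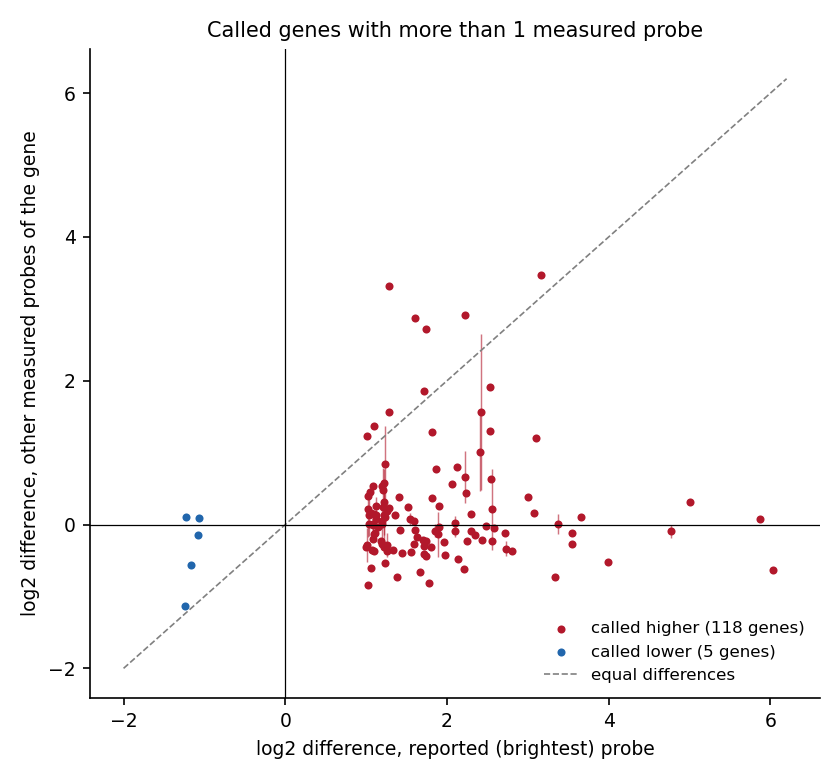
Log2 difference of the other measured probes (y axis, median with a line from the lowest to the highest) against that of the reported probe (x axis) for the 123 called genes with more than 1 measured probe, with genes called higher in red and lower in blue and equal differences as a dashed line. Most of the 118 red points lie near 0 on the y axis, whatever the rise on the reported probe, and a few lie near or above the dashed line.

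In the lists of genes of the striatum, drug response and glia, few members passed 2-fold, all of them rises, and most changes at adjusted p alone were small. The rises and falls of a list below are counted at adjusted p alone, where 13.6% of all genes rose and 40.5% fell, so that a share of falls near 40.5% is no result about the list. The AP-1 and immediate early genes, which neurons switch on soon after activity, had 31 of 37 members measured, of which 2 rose, 3 fell and 26 did not pass, with a median of -0.10 against -0.16 for all genes. Fos measured 11.11, 11.03, 11.37, 10.93 and 11.08 in Tat-Meth+ and 11.21, 10.76, 11.46, 11.40 and 11.51 in Tat+Meth+. The groups overlapped, and the difference was 0.17 ± 0.20 (adjusted p = 0.489). Fosb, at 0.34 ± 0.14, passed narrowly (adjusted p = 0.0416) with overlapping groups. Junb fell by 0.55 on the log2 scale (adjusted p = 0.0141) and Klf6 by 0.22 (0.00619), the latter turning to 0.12 without scaling. Jun, Atf3, Dusp1, Gadd45a, Maff and Cdkn1a lay between -0.18 and 0.24 and did not pass.

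Medium spiny neuron and dopamine signalling genes had 9 rises, 10 falls (23.3%) and 24 members not past the test of 43, with a median of 0.00. Pde1b, the calmodulin-dependent phosphodiesterase of striatum, rose from 17.07 to 17.21 in Tat-Meth+ to 17.81 to 18.04 in Tat+Meth+, by 0.70 ± 0.06 (adjusted p = 7.25e-09). Chrm4, the muscarinic receptor of direct pathway neurons, rose by 0.77 ± 0.11, at a mean log2 signal under 8, the level nearest to the negative control spots. Meis2 and Isl1, transcription factors of striatal development, fell by 0.49 and 0.40 on the log2 scale. The dopamine receptors Drd1, Drd2 and Drd3 differed by -0.13, -0.27 and 0.00 and did not pass.

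Glutamate receptor genes had 2 rises and 13 falls of 33 (39.4%, near the share over all genes), with Grm8 down by 0.86 on the log2 scale and Dlg3, a postsynaptic scaffold, by 0.32, the latter turning to 0.02 without scaling. Shank1, another such scaffold, rose by 0.44 ± 0.09, and its 2 other probes ran from -0.11 to 1.73. GABA receptor, synthesis and transport genes had 3 rises, led by Gabra4 at 0.52 ± 0.06 and Gabrb1 at 0.28 ± 0.06, and 10 falls of 21 (47.6%), among them Gphn, the gephyrin that clusters the receptor, by 0.47 on the log2 scale. Synaptic vesicle and release genes had 8 rises and 9 falls of 35 (25.7%), with Cplx2, a complexin, up by 0.57 ± 0.06 and Amph, amphiphysin, down by 0.42. All 5 measured nicotinic subunits passed: besides Chrna2, Chrnb4 rose by 1.56 ± 0.14, Chrna4 fell by 0.70 and Chrna7 by 0.46, with Chrnb4 and Chrna4 at a mean log2 signal under 8.

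Among the proteostasis lists, the one with falls in most members was that of heat shock and unfolded protein response genes. They had 18 falls (62.1%) and 2 rises of 29, with a median of -0.29 against -0.16 for all genes under the scaling used, led by Pdia3, a disulfide isomerase of the endoplasmic reticulum, from 12.54 ± 0.16 to 11.64 ± 0.07, and Dnajb9, an Hsp40 of the same compartment, down by 0.67 and, on its other probe, by 0.48. The list median less that of all genes was -0.13, and it was also below 0 with quantile normalization and cyclic loess. Hsp90ab1, at 0.16 ± 0.07, turned to -0.12 with quantile normalization and to -0.02 with cyclic loess. Proteasome subunits had 2 rises, Psmb10 at 0.26 and Psmc5 at 0.24, and 11 falls of 34 (32.4%), with Psmd2 down by 0.74 and Psmb1 by 0.64. Translation initiation factors and mTOR genes had 1 rise, Eif6 at 0.35, and 25 falls of 53 (47.2%), Eif1ax by 0.57, Eif4g3 by 0.44 and Rictor, of mTORC2, by 0.32 on the log2 scale, the last turning to 0.02 without scaling. Eif6 had another probe, at -0.05.

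Complex I subunits had 2 rises, Ndufb2 at 0.42 and Ndufb5 at 0.19, and 13 falls of 37 (35.1%), led by Ndufc2 at -0.53 and Ndufa12 at -0.50. Ndufb5 had another probe that went the other way, at -0.34. Complex II to V subunits had 14 rises (34.1%) and 7 falls (17.1%) of 41, with the copper chaperone Cox17 up by 2.02 ± 0.20 and Cycs, cytochrome c, down by 0.36 on the log2 scale. The medians of complex I, complex II to V and the ribosomal proteins less that of all genes were 0.10, 0.17 and 0.21, but those of complex I and the ribosomal proteins were below 0 with quantile normalization and with cyclic loess. Sirtuin pathway genes had 3 rises, Nos2, Ppara and Sirt6 at 0.59, and 10 falls of 18 (55.6%), with Nampt, of NAD synthesis, down by 0.54. The other probe of Sirt6 was at -0.43. Cox7a2l, Tomm22 and App lay between -0.20 and -0.19 and passed, but turned to 0.15, 0.14 and 0.15 without scaling, and Acly, at -0.04, did not pass. Cholesterol synthesis genes had 7 falls of 26 (26.9%) and no rise, with Hmgcs1 down by 0.53 and Fdps by 0.45, and clock genes had 6 falls (35.3%) and 1 rise of 17, Cry1 at 0.74 ± 0.10.

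Glial markers moved in different directions within a cell type. Astrocyte markers, of the cells that drive the transgene, had 10 falls (62.5%) and 1 rise of 16, with a median of -0.27, which was below that of all genes under each scaling. Gja1, a gap junction connexin, measured 10.85 to 11.19 in Tat-Meth+ and 10.14 to 10.50 in Tat+Meth+ (-0.82 ± 0.09, adjusted p = 5.89e-07), S100b fell by 0.33 (0.0076 without scaling), and Aldoc, aldolase C, rose by 0.43 ± 0.08. Gfap itself averaged 11.25 ± 0.35 in Tat-Meth+ and 10.97 ± 0.42 in Tat+Meth+ (-0.28, adjusted p = 0.279). Reactive astrocyte genes had no rise and 7 falls of 18 (38.9%), with Emp1 at -0.68 and Osmr at -0.45. Microglia markers had 4 rises and 7 falls of 17 (41.2%), with Ctss, cathepsin S, at -0.48 and the complement gene C1qb at -0.39 beside Siglech and Itgam. Oligodendrocyte and myelin markers had 8 falls (40%), Olig1 by 0.65 and Pdgfra by 0.59, and 1 rise of 20. These 3 shares lay near that of all genes. Endothelial and vessel markers had 2 rises and 5 falls of 18 (27.8%), Col4a1 at -0.51 and Flt1, another VEGF receptor, at -0.49 beside Kdr, whose other probe was at -0.11.

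Immune signalling lists held no common rise. Interferon response genes had 3 falls of 20 (15%), Stat2 by 0.58 and Ifih1 by 0.63 among them, no rise and the lowest median of the lists with 5 or more genes, -0.42. Chemokines, cytokines and receptors had 4 rises and 8 falls of 20 (40%), with Il18 at -0.54 and Il6st at -0.45, and the other probe of Tnfrsf1a was at -0.36 and those of Ccl19 at -0.45 and 0.18. Red blood cell genes, which tell of blood left in the tissue, had 1 fall, Alas2 at -0.97 ± 0.36, and 1 rise. Their mean level was 12.05 to 13.34 in Tat-Meth+ and 11.62 to 12.56 in Tat+Meth+. Of the choroid plexus markers only Enpp2 passed, at -0.59, of the cortex and hippocampus markers only Lamp5, at -0.44, and of 3 sex-linked genes only Ddx3y, at -0.62. Of the housekeeping genes Ppia rose by 0.44 and Gusb and Hprt fell by 0.27 and 0.31, the latter 2 turning to 0.07 and 0.03 without scaling.

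**Figure D5:**
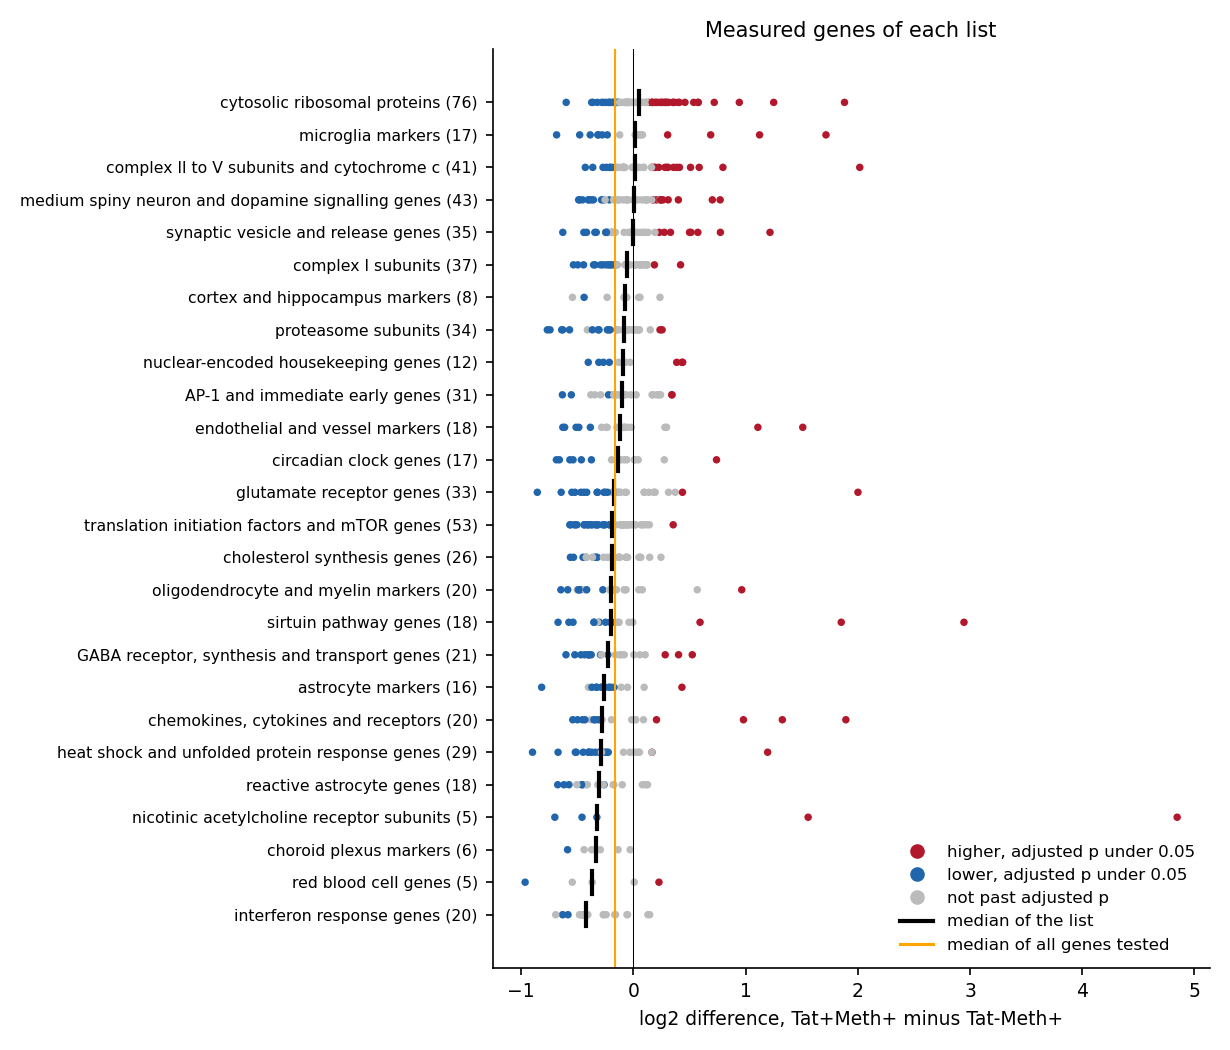
Log2 difference between Tat+Meth+ and Tat-Meth+ (x axis) for each measured gene of the 26 lists with at least 5 measured genes (y axis, number measured in brackets), in red for genes higher and blue for genes lower at adjusted p under 0.05 and grey otherwise. Black bars are the list medians, which run from -0.42 to 0.05, the orange line is the median of all genes tested at -0.16, and the points past 1 are single genes of lists that otherwise lie near that line.

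Some genes were measured in 1 group only and have no difference here. Of the 20972 genes with a probe, 87 were well above background on all 5 Tat+Meth+ arrays and on no Tat-Meth+ array, and none was so the other way round. Myod1, the muscle determination factor, was of this kind, well above background on 5 Tat+Meth+ arrays and 0 Tat-Meth+ arrays.

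The promoters of the called genes were searched for the TATA box TATAAA, the AP-1 motif TGANTCA and the cyclic AMP response element TGACGTCA, on both strands of the window from 250 bases before to 50 after the start site (RefSeq, GRCm38.p6). TATAAA lay in 17.8% of the 473 called-higher genes with a window, in 7.41% of 27 called lower, in 9.57% of 11298 tested and in 15.7% of all 27025 genes with a window. TGANTCA lay in 7.82, 7.41, 6.31 and 8.97%, and TGACGTCA in 1.90, 0, 3.44 and 2.03%. The called-higher genes thus lay nearer to all genes with a window than to the genes tested, for all 3 motifs. Prss28 and Prpmp5, both called higher, are shown because they alone among the 42 named called genes with a window held TATAAA in the 100 bases before the start, given 5′ to 3′ on the gene's strand with the motif in capitals, for chr17:25308546-25308645 on the + strand and chr6:132314744-132314843 on the - strand, and a match is no evidence of use.
Prss28: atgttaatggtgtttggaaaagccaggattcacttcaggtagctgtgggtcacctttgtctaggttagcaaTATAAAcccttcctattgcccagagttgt
Prpmp5: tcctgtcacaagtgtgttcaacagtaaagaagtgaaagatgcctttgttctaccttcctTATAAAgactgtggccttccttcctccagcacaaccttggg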

How the data were processed

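RNA of 20 brains was labelled and hybridised to 1-colour mouse arrays, 1 array per mouse. Per the file headers, the authors' Feature Extraction software wrote the deposited intensity of each spot, background-subtracted, with flags for outliers, saturation and signal well above background. The deposited series matrix holds a second version of these intensity values and served as an alternative. The methods name another dye, array format and scanner than the files and labels do.

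Spots with outlier flags (4278) and 3671 control spots per array were left out, spots of a probe were averaged as log2 intensity, and the 75th percentile of each array served as its scale. Of 55681 probes, 27656 were named through RefSeq accessions (20972 genes). The brightest measured probe stood for a gene. limma 3.58.1 in R 4.3.3 fitted 1 mean per group over the 4 groups, with Benjamini-Hochberg adjustment over 14192 genes. In simulated data for this comparison and number of genes, the fit called 100% of 200 genes given a change of 2 log2 units and 1 gene given none. The simulated noise was independent between arrays, with no slide effect, and the change given lay above the 2-fold limit. The simulation therefore checks that the fit runs as meant, and does not bear on the slide or on smaller changes. The number of arrays limits the precision. p-values measure the spread between these arrays, each of 1 mouse.

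Genes named are the 3 with the largest change per signal bin and direction among called genes whose groups do not overlap, up to 2 per list and direction with the smallest adjusted p, those the study discusses, and those said to be chosen later. Some genes that meet these rules are not reported here. The members and 27 lists were chosen with earlier results of these data known. Alternatives covered scaling, background correction, filters, probes, slides, single arrays, the methods' t-test and its limits.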

Additional observations from a re-analysis of the deposited data

Results flagged for a closer look

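Single arrays stood apart in 22 of 290 groups of 5 values tested, where chance gives about 1 in 20. Tat+Meth+ replicate 4 accounted for 9 of the 22. It was the highest of its group for Aadacl4fm5 (10.76), Prss28 (12.12), Gja1 (10.50), Gm19668 (12.85), Lce1a2 (15.33) and Greb1 (12.61) and the lowest for Dlg3 (14.62), Gabra4 (13.08) and Nos2 (9.79), on the log2 scale. Tat-Meth+ replicate 5 was the highest of its group for Sit1 (6.48), Prss28 (7.17) and Chrm4 (7.67), for the percent of probes well above background (70.8) and for the mean of the negative control spots (92.3). Tat+Meth+ replicate 5 stood apart for Pde1b (18.04), Rab3c (14.89) and Dusp1 (12.00), Tat-Meth+ replicate 1 for Gphn (13.60), Aldoc (18.03) and Slfn9 (10.09), Tat-Meth+ replicate 2 for Pramel34 (8.34) and Tat-Meth+ replicate 3 for the red blood cell gene Alas2 (11.03).

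The Tat effect differed between Meth-treated and saline mice for 709 genes in limma's interaction term, at an adjusted p under 0.05 and more than 2-fold. Of these, 642 had the higher Tat effect in Meth and 67 the lower. The Tat effect in saline mice was itself called for 1 gene, with 255 past adjusted p alone. That gene was Cox17, at -1.23 in saline mice (adjusted p = 0.0185), so its value below holds a fall in saline as well as the rise in Meth. The 4 groups lie on 3 slides, with Tat-Meth+ alone on slide 1, so this difference and the slide cannot be told apart. The values below are Tat effects in Meth less those in saline, in log2 units, for the named genes within both limits. Of the named called genes, those outside them were Npas1 (-0.99, adjusted p = 0.208 in limma), 4933409K07Rik (-0.79, 0.287) and Lipa (-0.89, 0.00673). Homer3 (1.22, 0.199), Arap1 (0.62, 0.163) and Gm3893 (-0.47, 0.629) were also outside.

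Among the genes with the largest changes at each signal level, the difference was 4.05 for Notum, 3.45 for Lst1, 3.05 for Arl4c, 5.69 for Wdfy1, 4.69 for Krtap10-10, 4.39 for Elane, 5.48 for Bard1, 4.90 for Sall4 and 4.37 for Pramel34. At lower signal it was 4.48 for Olfr1350, 4.00 for Msx2, 4.16 for Lman1l, 3.17 for Sit1, 2.85 for Aadacl4fm5 and 2.65 for Prss28. For the falls it was -1.83 for Pifo, -1.19 for Rarres1, -1.51 for Akt1s1, -1.16 for Tmod4, -1.73 for H4f16, -1.21 for Fbxo33, -1.14 for 1700110I01Rik, -1.39 for Trappc3 and -1.14 for Olfml3.

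Among the list genes it was 3.20 for Nos2, 4.37 for Chrna2, 1.58 for Chrnb4, 3.25 for Cox17, 1.91 for Rps21, 1.42 for Rpl4, 1.12 for Hspa8, 1.57 for Rab3c, 1.76 for Siglech, 1.12 for Itgam, 1.29 for Tagln, 1.18 for Kdr, 1.26 for Tnfrsf1a, 1.91 for Ccl19, 1.46 for Ppara, -1.0 for Pdia3 and -1.33 for Alas2. Among the genes whose other probes were all called the same way it was 1.31 for Arhgap28, 2.03 for Fbxo39, 1.88 for Gm19668, 2.82 for Lce1a2, 1.13 for Nhlh1, 1.37 for Prpmp5, 2.12 for Septin1, 1.76 for Slfn9, 2.01 for Tbc1d22b, 2.52 for Vangl2 and 1.21 for Zfp956. Among those whose other probe passed the other way it was 2.80 for Paip1, 2.57 for Greb1 and 2.57 for Zfp609.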

How the results depend on the processing

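Of the 59 named genes that were called, none turned direction in the 27 alternatives run gene by gene, and 39 kept both limits of the call in all of them. The other 20 lost the call in 1 to 12, with 10 of the 13 named falls lost without scaling, 10 genes with the mean over probes, 7 with normexp, 5 with cyclic loess, 4 with median scaling and 0 to 3 when 1 array was left out. Gm3893 lost it in 12, Arhgap28 in 9, Lipa in 8 and Npas1, Itgam and Olfml3 in 5 each. Against 611 genes higher and 32 lower, 643 in all, the count lower was 105 with median scaling, 3 without scaling, 51 with quantile normalization, 18 with cyclic loess and 11 with normexp, and the count higher 937 without scaling. A mean of at least 6 in place of the background filter gave 969 higher and 71 lower (1040), no filter 1364 and 171 (1535), and every probe on its own 2069 and 105 (2174). An adjusted p under 0.01 with 3-fold gave 295 and 1 (296), and no fold limit 1924 and 5750 (7674). At adjusted p alone, 993 were higher with median scaling and 4652 without scaling, 303 were lower without scaling and 3746 with cyclic loess, and every probe on its own gave 5524 and 9211. Leaving out 1 array gave 612 to 711 calls, 578 to 673 higher and 31 to 44 lower, and 1785 to 2048 higher and 5164 to 5714 lower at adjusted p alone.

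The median differences from the second lowest to the highest signal bin were -0.33, -0.35, -0.35 and -0.24 with median scaling. Without scaling those of all 5 bins, from the lowest, were 0.25, 0.16, 0.14, 0.14 and 0.26. With quantile normalization the bin from 8 to 10 was at -0.22 and that of 14 and over at -0.17, with cyclic loess the bins from 8 to 14 were at -0.080, -0.036 and -0.040, and with normexp that of 14 and over was at -0.17. Leaving out 1 array, the 5 medians ranged from -0.12 to -0.01, -0.18 to -0.16, -0.21 to -0.18, -0.21 to -0.17 and -0.10 to -0.05. Counted by sign alone, the other probes followed the reported one in 51 of the 118 genes called higher.

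Directions turned only for genes below 2-fold. Without scaling they were 0.12 for gene Klf6, 0.018 for gene Dlg3, 0.0076 for gene S100b, 0.070 for gene Gusb, 0.029 for gene Hprt, 0.23 for gene Jun, 0.18 for gene Dusp1, 0.24 for gene Maff, 0.16 for gene Cdkn1a, 0.15 for gene App, 0.15 for gene Cox7a2l, 0.14 for gene Tomm22, 0.30 for gene Acly and 0.023 for gene Rictor. The mean over probes gave -0.17 for gene Homer1 and -0.076 for gene Ndufb5. Gene Hsp90ab1 was at -0.12 with quantile normalization, -0.019 with cyclic loess and -0.088 with normexp, and gene Gapdh at -0.018 and -0.045 with the first and last of these. With cyclic loess gene Jun was at 0.071 and gene Dusp1 at 0.016, and with normexp gene Jun at 0.0084. With the arrays of slide 3 alone gene Jun was at 0.052 and gene Acly at 0.022, with those of slide 2 alone gene Atf3 at -0.039 and gene Maff at 0.0084, and gene Acly ranged from -0.078 to 0.0028 when 1 array was left out, the highest without Tat+Meth+ replicate 3. The cause of these changes was not tested.

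Replicate numbers did not pair the arrays: same-numbered arrays correlated at -0.135 to 0.122 in their deviations. The fit with the replicate block called 611 genes higher and 32 lower and kept all 643. The slide as a random block had a correlation of -0.063 and kept 642 calls, but no fit can separate slide 1 from Tat-Meth+. Dim probes limit the comparison, since 2462 of 20972 genes had no array of the 10 with a probe well above background.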
